A study of Ambystoma mexicanum with 7 samples.

Results

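The miR-29 family was followed in regenerating axolotl hindlimbs on a pair of microarray platforms. Its members were all probes with a vertebrate entry named exactly miR-29, miR-29a, miR-29b, miR-29c or miR-29d, once the species prefix was dropped. These covered 4 of the 1628 vertebrate miRNA names on the arrays (miR-29a, miR-29b, miR-29c and miR-29d) and 19 of 3995 named probes, 5 of 2021 on the Exiqon arrays and 14 of 1974 on the LC Sciences arrays, and no probe carried the name miR-29 without a letter. The 17 dpa blastema group held mid-bud blastemas collected 17 days post amputation from 3 white axolotls, animals 368, 369 and 378. The stump group held the pieces of limb, with skin, bone, muscle and nerve, taken from the same 3 animals at amputation. The stump pieces are mixed tissue of the uninjured limb, and no other treatment or genotype separated the groups. Each group had n = 3 on each platform, and the companies received RNA of the same animals, so the platforms are not independent samples.

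MicroRNAs of the miR-29 family are short RNAs that pair through their seed with sites in messenger RNAs and lower the protein made from them. In mammals their best known targets encode the extracellular matrix, among them the fibrillar collagens, elastin and fibrillin, and TGF-beta lowers miR-29 in fibroblasts. The mature members come from a pair of hairpin clusters, 1 with miR-29a and a copy of miR-29b and 1 with miR-29c and the other copy of miR-29b. The hairpin arm opposite each mature strand gives a passenger strand, marked with an asterisk.

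The LC Sciences array listed a target sequence for each reporter, and 8 distinct sequences covered the 14 members. Those that decide which reporters stand for the same molecule are shown from 5′ to 3′, with the seed (bases 2 to 8) in capitals and species given as human (hsa), zebrafish (dre), chicken (gga), the frog Xenopus tropicalis (xtr) and opossum (mdo).
hsa-miR-29a: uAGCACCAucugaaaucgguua
hsa-miR-29c and dre-miR-29a: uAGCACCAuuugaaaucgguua
gga-miR-29a and xtr-miR-29a: uAGCACCAuuugaaaucgguu
mdo-miR-29a, gga-miR-29c and xtr-miR-29c: uAGCACCAuuugaaaucggu
hsa-miR-29b, gga-miR-29b and xtr-miR-29b: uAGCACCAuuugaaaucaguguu
xtr-miR-29d: uAGCACCAuaugaaaucaguguc
All 14 members carried the seed AGCACCA, and no other reporter of the 1974 did (0.709% of reporters). Counting from 1 at the 5′ end, the change from hsa-miR-29a to hsa-miR-29c was C10U alone. From hsa-miR-29c to hsa-miR-29b it was G18A, U21G and A22U over 22 compared bases. From hsa-miR-29b to xtr-miR-29d it was U10A and U23C. The sequences named miR-29a in zebrafish, chicken, frog and opossum thus matched human miR-29c over their whole length, and differed from human miR-29a at base 10. The Exiqon probes, whose own sequences were not used here, are described by the names they list. Probe 11039 listed miR-29a alone, in 14 entries, and probe 11040 listed miR-29b. Probes 11041 and 27649 listed entries of both miR-29c and miR-29a, and are called the miR-29a/c probes here. Probe 17308 listed xtr-miR-29d alone. Axolotl miR-29 sequences were not used here, so how well each probe fits the axolotl molecules is not known. Whether a probe reads only the member it names is not known either.

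On the Exiqon arrays every member probe averaged lower in 17 dpa blastemas than in stump. The miR-29b probe fell, by 1.16 on the log2 scale, and was 2.24-fold lower in blastema. The miR-29a probe and both miR-29a/c probes had mean differences of -0.82 to -0.91, and the miR-29d probe had -0.52, none past the threshold. Of the 5 probes, 1 was called lower, against 10.9% of all 2015 probes tested called lower. Many of the 2015 probes were dim. In a fit of the 975 probes brighter than every negative control, 4 members and 23.5% of all were called lower. In these pieces of whole tissue, fewer cells that hold miR-29 and less miR-29 per cell cannot be told apart.

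Exiqon values are log2 ratios of the sample (Hy3 dye) over a pool of all samples (Hy5 dye), and a call is an adjusted p under 0.05 in limma over all probes tested. For miR-29b the log2 ratio was -1.10, -1.17 and -0.87 in the blastemas of animals 368, 369 and 378, against -0.17, -0.25 and 0.77 in their stumps. The lowest stump value lay above the highest blastema value, and the stump of animal 378 lay well above the other stumps. The mean was -1.04 ± 0.16 in blastema and 0.12 ± 0.57 in stump (SD, n = 3 each), a difference of -1.16 (SE 0.24, limma adjusted p = 0.00744). The difference per animal was -0.93, -0.92 and -1.63.

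For miR-29a, probe 11039, the log2 ratio was -0.84, -1.18 and -0.78 in blastema, against -0.40, -0.46 and 0.73 in stump. The groups did not overlap, yet the spread in stump was wide, again because of animal 378. The means were -0.93 ± 0.21 in blastema and -0.04 ± 0.67 in stump, and the difference of -0.89 (SE 0.28) had a limma adjusted p of 0.0538.

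The miR-29a/c probes both listed mouse miR-29c with the miR-29a of fish, frog and chicken, and probe 11041 listed human miR-29c as well. Probe 11041 had log2 ratios of -0.75, -0.86 and -0.56 in blastema, against -0.24, -0.31 and 0.84 in stump. Its difference was -0.82 (SE 0.27, limma adjusted p = 0.0593). Both probes gave the same picture, with the 3 blastemas below the 3 stumps. Probe 27649 had log2 ratios of -0.94, -1.12 and -0.58 in blastema, against -0.32, -0.44 and 0.86 in stump. Its difference was -0.91 (SE 0.30, limma adjusted p = 0.0653).

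The probe for xtr-miR-29d, a member named in the frog, was the exception in overlap. Its log2 ratio was -0.56, -0.84 and -0.34 in blastema, against -0.47, -0.47 and 0.78 in stump, so the blastema of animal 378 lay above the stumps of animals 368 and 369. The difference was -0.52 (SE 0.30, limma adjusted p = 0.304). In all, the groups did not overlap for 4 of the 5 member probes, against 18.8% of 2009 probes with 6 values in which blastema lay wholly below stump. Many of those 2009 probes were dim, and the share among brighter probes alone is not given here.

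**Figure D1:**
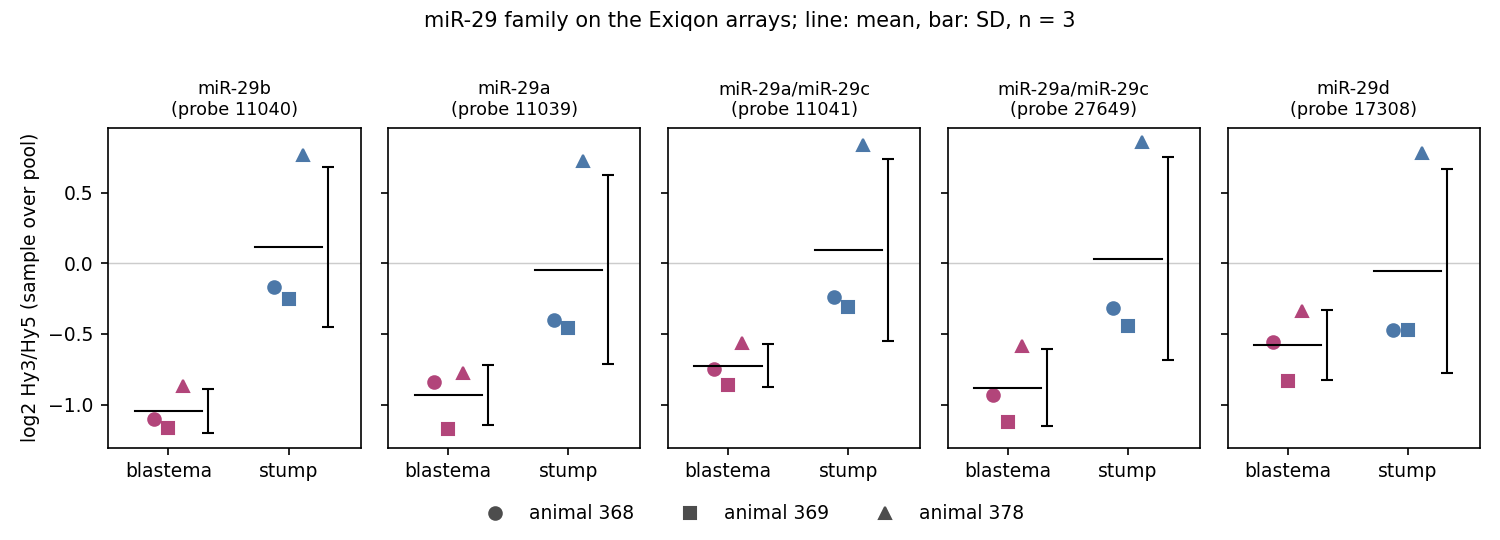
Log2 Hy3/Hy5 ratio (y axis) of the 5 Exiqon member probes in the blastema and stump of 3 animals, with the mean (line) and SD (bar) of each group. Blastema lies below stump without overlap in 4 panels, the miR-29d panel overlaps, and the stump of animal 378 lies highest in each panel, between 0.73 and 0.86.

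The stump of animal 378 set much of the size of these differences. Without that sample the miR-29b difference was -0.83 and was still called (limma adjusted p = 0.00455). The miR-29a difference was -0.50 (adjusted p = 0.0575), those of the miR-29a/c probes were -0.45 and -0.50 (adjusted p = 0.0568 and 0.0881), and that of miR-29d was -0.10 (adjusted p = 0.736). In pairs of blastema and stump from the same animal, all 15 differences of the 5 probes lay below 0. These 15 values come from 3 animals and from probes that may read the same molecules, so they are not 15 independent observations. By mean difference, 1007 of all 2015 Exiqon probes tested lay below 0. The share of all probes with a difference below 0 in every animal is not given here. Leaving out the stump of animal 368 or 369 instead gave 3 or 4 member probes called lower (9.43% and 9.28% of all probes), against 1 with all samples, and the count without the stump of animal 378 was 1 (8.93% of all probes). Leaving out both samples of animal 368 or of animal 378 gave 2 (9.88% and 5.01% of all probes). Fitted with the animal as a block, 4 of 5 member probes were called lower, all but miR-29d, against 9.28% of all probes.

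The dye signal behind these ratios was low but above the 7 negative control probes, which read 92.0 to 128 on average. The miR-29b probe had mean Hy3 signals of 149, 161 and 222 in blastema, against 354, 232 and 413 in stump. The miR-29d probe had Hy3 signals of 261, 277 and 421 in blastema, against 513, 355 and 852 in stump. Every member probe was brighter than every negative control on all 6 arrays, by 1.29-fold at the least, and no spot of a member probe was flagged or saturated. These are signals before background correction or scaling. The median Hy3 signal over all probes was 118 to 127 per array, near the brightest negative control of each array (115 to 128). Shares over all Exiqon probes thus include many probes with little signal.

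The LC Sciences arrays gave no call for a member. Of 14 member reporters, 5 reached a normalized signal of 32 in all 3 samples of a group and were tested. The 4 that reached it in all 6 samples had differences of -1.001 to -1.23 on the log2 scale, and mdo-miR-29a entered only through the stump group. Of the 5, 0 were called lower, against 22.4% of 500 reporters tested. The smallest unadjusted p of these 5 in limma was 0.103. The high value again came from 1 sample, the stump of animal 378.

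The reporters for gga-miR-29a and xtr-miR-29a share their target sequence. The gga-miR-29a reporter had normalized signals of 90, 54 and 133 in the blastemas of animals 368, 369 and 378, against 133, 110 and 569 in their stumps. The xtr-miR-29a reporter had 69, 64 and 115 in blastema, against 130, 78 and 518 in stump. In both, each blastema was below the stump of its own animal, while the groups overlapped across animals, as they did for all 5 tested reporters (31.8% of the 500 had every blastema below every stump). The differences were -1.23 (SE 0.66, limma adjusted p = 0.161) for gga-miR-29a and -1.12 (SE 0.67, adjusted p = 0.200) for xtr-miR-29a.

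The reporters for hsa-miR-29c and dre-miR-29a share the sequence 1 base longer. The hsa-miR-29c reporter had 75, 48 and 95 in blastema, against 116, 50 and 473 in stump, and a difference of -1.001 (SE 0.77, limma adjusted p = 0.302). The dre-miR-29a reporter had 62, 45 and 111 in blastema, against 119, 68 and 459 in stump, and a difference of -1.19 (SE 0.70, adjusted p = 0.193). Reporters of the same sequence thus followed each other sample by sample, and the near equality of hsa-miR-29c in animal 369 (48 in blastema, 50 in stump) stood against 45 and 68 in its twin.

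The 3 reporters of the shortest shared sequence were dimmer, and mdo-miR-29a passed the filter only through the stump group. Its signals were 21, 24 and 40 in blastema, against 34, 40 and 157 in stump, with a difference of -0.79 (SE 0.56, limma adjusted p = 0.273) after values under 32 were set to 32. The gga-miR-29c reporter had 11, 23 and 55 in blastema, against 29, 39 and 180 in stump, and was not tested. The xtr-miR-29c reporter had 7, 30 and 41 in blastema, against 24, 19 and 153 in stump, and was not tested. Stump of animal 378 was the highest sample for each of the 3.

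The reporter for hsa-miR-29a, which carries C at the position of the token C10U, reached 32 in 1 of 6 samples only. Its signals were 17, 13 and 5 in blastema, against 14, 15 and 120 in stump, and the 120 was the stump of animal 378. The xtr-miR-29d reporter had 18, 34 and 43 in blastema, against 26, 14 and 62 in stump, and was not tested. None of the 5 reporters for miR-29b reached 32 in any sample, the highest signal being 28. The miR-29b difference seen on the Exiqon arrays could not be measured on the LC Sciences arrays at this signal.

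**Figure D2:**
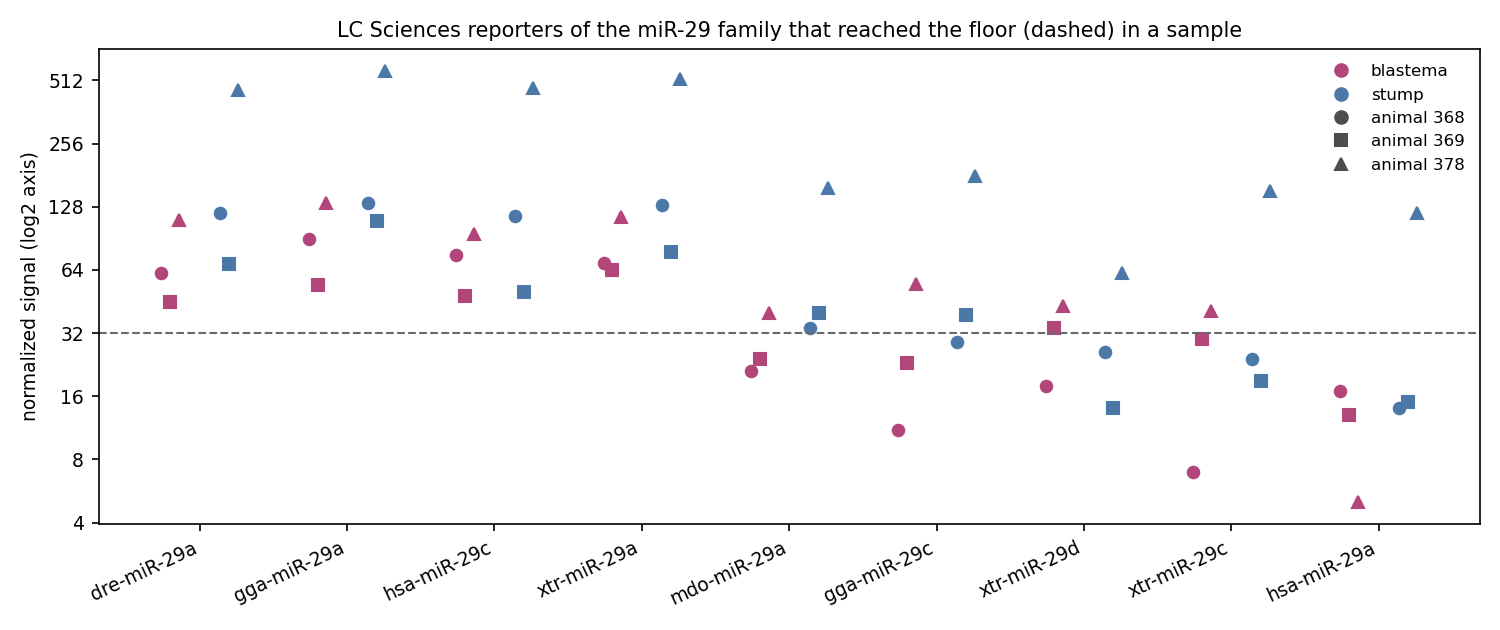
LC Sciences normalized signal (log2 axis) of the 9 member reporters that reached 32 (dashed line) in at least 1 sample, blastema left of stump for each reporter. In all 9 the stump of animal 378 is the highest sample, from 62 for xtr-miR-29d to 569 for gga-miR-29a, and levels are to be read within a reporter, not between reporters.

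For the 4 reporters at or above 32 in all samples, the stump of animal 378 was 3.86-fold to 4.28-fold above the next highest stump. Without it the differences of the 5 tested reporters were -0.10 to -0.48, with adjusted p between 0.387 and 0.844. With the animal as a block, which on these arrays is also the array, 2 of 5 were called lower (gga-miR-29a and dre-miR-29a, limma adjusted p = 0.0432 each), against 21.6% of all reporters.

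Averaged over the 5 member probes tested on each platform, the Exiqon difference was -0.52 in animal 368, -0.65 in animal 369 and -1.42 in animal 378. The LC Sciences difference of the same animals was -0.63, -0.46 and -2.12, and -0.76, -0.49 and -2.16 over the 4 reporters that reached 32 in every sample. On both platforms animal 378 had the difference farthest from 0, and in no animal was a platform's mean difference above 0.

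**Figure D3:**
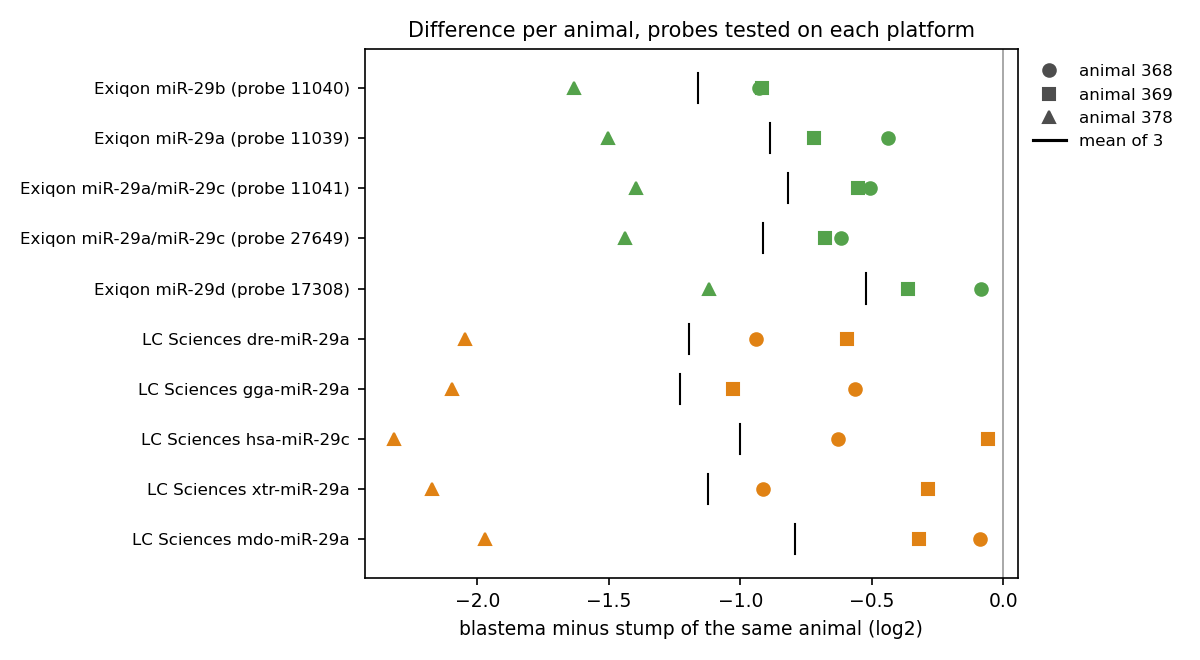
Difference of blastema minus stump within each animal (x axis, log2) for the 5 Exiqon probes and the 5 LC Sciences reporters tested, with the mean of 3 animals as a line. All points lie below 0, and animal 378 lies farthest from 0 in every row, between -1.12 and -2.32. The blastema values of mdo-miR-29a in animals 368 and 369 were set to 32.

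Members were then compared with each other within each array. This asks whether the members changed by different amounts. Of 5 pairs computed, 4 on Exiqon compare probes with different lists of names. Human miR-29a differs from miR-29c at 1 and from miR-29b at 4 of 22 compared bases. The miR-29a/c probes also list miR-29a. Whether these probes tell the members apart was not tested. The log2 ratio of miR-29d minus that of miR-29a was 0.28, 0.34 and 0.44 in blastema, against -0.07, -0.02 and 0.05 in stump. The difference of miR-29d was thus closer to 0 than that of miR-29a in each animal, by 0.35, 0.36 and 0.38. The log2 ratio of miR-29b minus that of miR-29a was -0.26, 0.01 and -0.09 in blastema, against 0.23, 0.21 and 0.04 in stump, a difference of -0.27. For both pairs the groups did not overlap, and the exact permutation test (two-sided) gave p = 0.1, the smallest that 3 against 3 samples allow (0.25 adjusted over 5 pairs). The gap between miR-29d and miR-29a depended on how arrays were centred, and was 0.11 (exact permutation p = 0.3) under median centring and 0.15 (p = 0.5) under loess on spike-ins, against 0.37 as reported. The miR-29a/c probes differed from miR-29a by 0.07 and -0.03 in their change (exact permutation p = 0.5 and 0.8). The fifth pair, on LC Sciences, set hsa-miR-29c against reporters of the same sequence or its shorter forms, so it compares no different members.

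The passenger strands were read by 4 Exiqon probes, and their differences lay on both sides of 0. The miR-29c* probe of the mammals (14300) had log2 ratios of 0.17, 0.08 and 0.02 in blastema, against 0.48, 0.44 and 0.43 in stump. Its difference of -0.36 (SE 0.10, limma adjusted p = 0.0350) was called lower. The call was lost in 12 of 22 alternatives, among them the fit with the animal as a block (adjusted p = 0.0758) and the fits without animal 368, 369 or 378 (0.0684, 0.229 and 0.173). The frog miR-29c* probe (17307) had a difference of 0.35 (adjusted p = 0.110), the miR-29b-1* probe -0.25 (adjusted p = 0.151) and the miR-29a* probe 0.07 (adjusted p = 0.793). These probes read at most 1.47 times the brightest negative control on any array, and those of miR-29b-1* and frog miR-29c* read 1.00 times that control on the array where they were closest to it. The 5 passenger reporters on LC Sciences stayed at 23 or less in every sample.

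The size of the family's differences on the Exiqon arrays depended on how each array was centred. With each array centred on its median in place of loess, all 5 members were called lower with a median difference of -1.17, against 13.1% of all probes. With the loess fitted to the spike-in control spots, all 5 were called lower with a median of -1.87, against 11.1% of all probes. The 10 spike-in probes averaged 0.74 higher in blastema on the log2 scale in the values reported here. These settings also moved the balance over all probes, which was 220 lower and 184 higher as reported, 264 and 55 under median centring, and 224 and 23 under loess on spike-ins. With other background corrections, or with the Hy3 dye alone, the miR-29b probe was the only member called (9.53% to 11.5% of all probes). With the deposited log2 median ratios of 380 probes, and among the 975 probes brighter than every negative control, 4 members were called lower, against 39.7% and 23.5% of the probes in those fits. In the kind of test that the study's methods used, 0 members passed, at their threshold or after adjustment (1.79% and 7.94% of all probes lower).

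**Figure D4:**
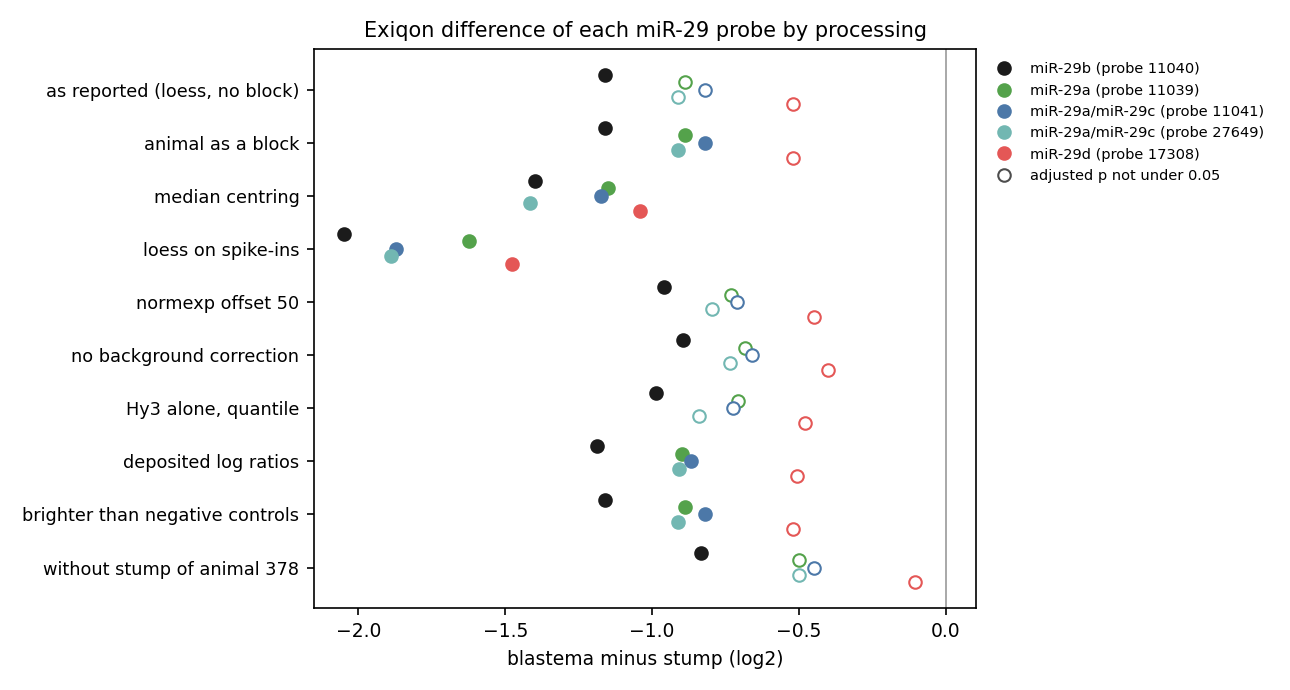
Exiqon difference of blastema minus stump (x axis, log2) of the 5 member probes under 10 ways of processing, filled where the limma adjusted p was under 0.05. Every point lies below 0, miR-29b is filled in every row shown, and all 5 probes are filled under median centring and under loess on spike-ins.

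On LC Sciences the 4 spike-in control reporters of the PUC2PM kind were 7.50-fold higher in blastema. Centred on them, all 5 tested members were called lower, against 84.6% of all reporters (423 lower and 2 higher, where 112 and 129 were called as deposited). The 5 include mdo-miR-29a, which entered only through the stump group. The median over all reporters moved to -2.70 by that scaling and the median of the members to -3.58, so the members lay 0.88 below that shift. Reporters with more GC had higher differences on these arrays, by 0.62 (SE 0.069) per 10 percentage points, and the tested members had GC contents of 36.4% to 40%, against a median of 45.5% over all reporters tested. With that trend taken out, the median difference of the members was -0.55, and the mean over members was 0.00 in animal 368 and 0.07 in animal 369. In animal 378 it was -1.61. This correction was chosen after the values were seen. It uses 1 line over all reporters tested. The SE of that line takes the reporters as independent, though many stand for the same miRNA and all share the same samples. Before it, the 46 reporters in the GC range of the tested members that are not members had a median difference of 0.12. The part of GC content in the differences of the members was not tested. The spot values of the array of animal 368 before normalization gave a mean over the 5 members of -0.11, relative to the median of 486 reporters, where the normalized signals gave -0.63.

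A list of other miRNAs known in mammals to limit matrix genes or TGF-beta signals was set beside the family. On the Exiqon arrays 20 of its 24 probes were called lower and 0 higher, with a median difference of -0.96, against 10.9% of all probes lower and 9.13% higher and a median of 0.00 over all probes. In the separate fit of the 975 probes brighter than every negative control, 23.5% of all were called lower, and the count of this list in that fit is not given here. The 24 probes cover 14 names, and several list the same miRNA, so they are not 24 independent observations. Probes for miR-26a (-1.37), miR-26b (-1.20 and -1.28) and miR-30e (-1.12 and -1.10) were among those called. A probe that lists miR-30e* of human, mouse and rat, and miR-30e only of dog (cfa), is counted among the 20 (-0.38), and without it 19 of 23 were called with a median of -1.06. The largest falls were those of miR-133a and miR-133b (-2.42 to -2.63), which are also muscle miRNAs. For these probes the difference was -3.42 to -4.38 in animal 368, against -1.69 to -2.06 in animals 369 and 378. The 4 probes that were not called named miR-200a, miR-200b or both miR-200b and miR-200c, miRNAs of epithelia, at -0.17 to -0.25, while a probe of miR-200c alone was called (-0.43). On LC Sciences 4 of 58 reporters of this list were called lower and 0 higher, with a median of -0.38, against 22.4% of all reporters lower and 25.8% higher and a median of 0.01 over all reporters. Many of the 58 stand for the same miRNA in different species. The share of the list called lower was thus below that of all reporters. The called reporters there were 3 for miR-26a (-0.87 to -1.02) and 1 for miR-26b (-2.34). No reporter of miR-133a or miR-133b was called there (-1.31 to -1.89). All 24 Exiqon probes stayed below 0 under median centring, loess on spike-ins and Hy3 alone. On LC Sciences the list depended on the GC trend, since with it taken out 5 of 58 reporters were called lower and 16 higher (22.2% and 29.4% of all reporters), and on the scaling, since all 58 were called lower when centred on spike-ins (84.6% of all reporters).

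A second list held miRNAs known in mammals to go with matrix deposition. Both Exiqon probes for miR-21, a miRNA raised in many fibrotic tissues, were called higher (2.98 and 2.41), and so were all 6 LC Sciences reporters for it (3.52 to 4.92). The Exiqon probes of miR-199a (-0.51 and -0.61), miR-214 (-0.52) and 1 probe of miR-192 (-0.60) were called lower. The other miR-192 probes were at 0.83 and -0.26 and were not called (limma adjusted p = 0.0562 and 0.220). At the same time the LC Sciences reporters of miR-199a and miR-214 had differences of 0.22 to 0.99 and were not called. In all, 2 of 8 Exiqon probes of this list were called higher, against 9.13% of all probes, and 6 of 16 LC Sciences reporters, against 25.8%. The miR-21 differences stayed above 0 under each scaling tried on either platform, with 2 of 6 LC Sciences reporters called when centred on spike-ins, while the other 10 reporters of the list turned below 0 there. With the GC trend taken out, the 6 reporters for miR-214 lay below 0 and 3 of them were called lower.

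**Figure D5:**
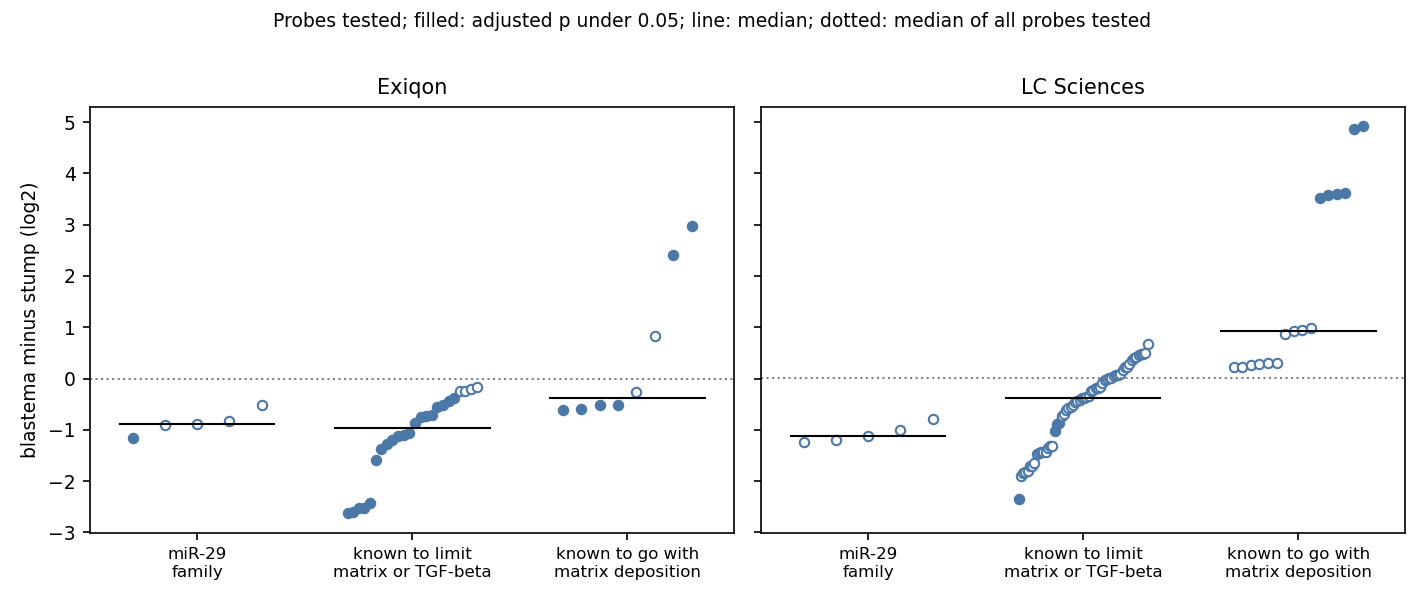
Difference of blastema minus stump (y axis, log2) of each probe tested for the miR-29 family and both matrix-linked lists on the Exiqon (left) and LC Sciences (right) arrays, filled where called, with the median as a line. Medians on Exiqon are -0.89, -0.96 and -0.39, and the miR-21 probes lie highest on both platforms.

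The miRNAs whose pattern was most like that of the family were found by Pearson's r over the 6 samples with the mean of the 5 tested members, as a description with shared samples. On Exiqon, over 1054 probes, these were miR-145 (r = 0.977), miR-493 (0.958), miR-768-3p (0.956), miR-22 (0.952) and miR-143 (0.944). The miR-145 probe, for a miRNA of smooth muscle that shares a hairpin cluster with miR-143, read 0.10, 0.12 and 0.17 in blastema, against 0.24, 0.22 and 0.71 in stump. Like the family it was highest in the stump of animal 378, and its difference of -0.26 was not called (limma adjusted p = 0.272). On LC Sciences, over 495 reporters, they were miR-10a (0.888), miR-30a (0.827), miR-429 (0.818), miR-128 (0.788) and miR-26a (0.784). No name was shared between these sets of 5. On LC Sciences the reporters of miR-10a, miR-30a and miR-128 were at the floor of 32 in the blastema of animal 368. So was mdo-miR-29a, which is part of the mean, so these r values rest in part on values set to the floor.

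Markers of muscle and endothelium were lower in blastema on both platforms, and those of cartilage on Exiqon, while those of epidermis differed between the platforms. All 11 Exiqon probes of the skeletal muscle miRNAs (miR-1, miR-206, miR-133a, miR-133b, miR-499) were called lower, with a median of -2.51. Several of the 11 list the same miRNA. Over all Exiqon probes tested, 10.9% were called lower and 9.13% higher, and 23.5% were called lower among the 975 brighter than every negative control. That last share is from a separate fit, and the counts of the marker probes in it are not given here. The mean level of the 11 muscle probes, set to 0 over the 6 samples, was -2.52, -0.63 and -0.66 in blastema, against 1.27, 1.13 and 1.40 in stump. All 6 cartilage probes (miR-140, miR-455; median -1.43) and all 3 endothelial probes (miR-126; median -1.05) were called lower as well, and so were 2 of 3 epidermal probes (miR-203, miR-205; median -0.41), of which 0 were called with Hy3 alone. Of the cartilage probes 2, and of the endothelial probes 1, also list an asterisked entry of the same name, and without them 4 of 4 and 2 of 2 were called lower. Of 4 blood probes, the miR-223 probe was called higher, though not under median centring or loess on spike-ins (limma adjusted p = 0.0827 and 0.313), and the 3 miR-451 probes changed sign under both. On Exiqon the stump of animal 378 was the highest sample for muscle, cartilage, endothelium and epidermis, and for the mean of the miR-29 members. It exceeded the next stump by 0.12, 0.40, 0.05 and 0.04 for these markers, and by 1.11 for the members. On LC Sciences its value minus that of the highest other stump was -0.09, 0.39, -0.09 and 0.18 for the same markers, and 2.05 for the members. These lists cover only a few of the cell types in the limb. On LC Sciences 11 of 26 muscle reporters, 2 of 2 cartilage and 4 of 4 endothelial reporters were called lower, against 22.4% of all reporters. The muscle reporters not called were all of miR-133a or miR-133b. Both cartilage reporters were of miR-455, and in the blastemas of animals 368 and 378 they were at the floor of 32. They passed the filter through the stump group, so their calls are no support. On the same arrays 10 of 11 blood and 3 of 7 epidermal reporters were called higher, against 25.8% of all, and 0 of either list when centred on spike-ins (0.400% of all). Centred so, all 11 blood and 6 of 7 epidermal reporters changed sign, and 1 and 4 of them were called lower (84.6% of all reporters). The 3 epidermal reporters called higher as deposited were all of miR-205 (1.84 to 1.90). The Exiqon probe of miR-205 was at -0.28 and was not called (limma adjusted p = 0.130). The mean muscle level on LC Sciences was -3.21, -0.22 and -0.12 in blastema, against 1.30, 1.05 and 1.20 in stump. The part of these tissues in the miR-29 differences was not tested.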

How the data were processed

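Limb tissue of 3 animals was measured as 17 dpa blastema and stump on Exiqon LNA arrays and on LC Sciences chips. The members and lists were chosen with earlier results of these data known. The deposited Exiqon scanner files hold spot intensity in the Hy3 and Hy5 channels. With limma 3.58.1 in R 4.3.3, mean spot intensities were corrected with normexp (offset 10), normalized by loess within arrays with control spots at weight 0, stripped of flagged spots and averaged over the 4 spots of a probe. The deposited Exiqon log2 median ratios, made by the company with the same correction and LOESS per the company's report in the study's supplement, served as an alternative. Probes entered the test if 50% or more of their spots lay 2 SD over local background on every array of either group. Unnamed probe IDs (206) were not used. The deposited LC Sciences values are signals that the company had background-subtracted and normalized. They were set to 32 where lower, log2 transformed and kept where 32 was reached in all 3 samples of a group. Each LC Sciences array held both samples of 1 animal, and the blastema of animal 368 carried Cy3 while those of the other animals carried Cy5, so the dye is part of its error. Precision on arrays is limited by the number of arrays. The limma p-values set each difference against the spread between samples of a group, moderated over all probes. The main fit does not pair samples by animal.

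Differences are blastema minus stump, tested with lmFit and eBayes over all probes kept with Benjamini-Hochberg adjustment. Named probes were all members, the passenger strands, the list miRNAs and the 5 names per platform most correlated with the mean of the tested members. Members were set against each other by exact permutation of 3 against 3 samples. Samples of the same number come from the same animal, so the animal was also fitted as a block. The correlation of deviations from the group means within an animal was -0.04 to -0.01 on Exiqon and -0.05 to 0.17 on LC Sciences. The fit was tested on simulated data with independent noise and no animal pairing, array effect or outlying sample. That simulation thus does not bear on the effect of the stump of animal 378. Alternatives covered background correction, normalization, filters, floors, dye, the methods' t-test, and each animal and sample left out. The companies' and authors' own fold changes and p-values were not used.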

Additional observations from a re-analysis of the deposited data

How the results depend on the processing

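All 115 Exiqon and 97 LC Sciences differences stayed below 0 over 23 and 20 alternatives for the 10 member probes tested as reported. These alternatives reuse the same samples, and several change only the test or filter and leave the difference as it was. The counts of signs are thus no added support, and the share of all probes that kept their sign is not given here. The LC Sciences values include those of mdo-miR-29a, which passed the filter only through the stump group, so its sign is no support. Among reporters tested only under other filters, xtr-miR-29d was at 0.00967 with a floor of 16, and the 5 for miR-29b were at the floor in every sample with no filter. The miR-29b probe passed an adjusted p of 0.05 in 21 of 23, at -0.83 to -2.05, and in all 9 that left out an animal or a sample (-0.83 to -1.34). It missed it only in the methods' t-test (adjusted p = 0.113). The count of Exiqon members called, 1 as reported, was 5 under median centring, 5 under loess on spike-ins, 4 with the deposited log2 ratios, 4 among probes brighter than every negative control, 4 with the replicate block on animal, 0 in the methods' t-test at p of 0.001 or less and 0 after its Benjamini-Hochberg adjustment. The shares of all probes called lower in these fits were 13.1%, 11.1%, 39.7%, 23.5%, 9.28%, 1.79% and 7.94%, in that order. The count of members was 1 to 4 with an animal or sample left out (3 without the stump of animal 368, 4 without that of animal 369, 2 without animal 368 and 2 without animal 378). Of all 2015 Exiqon probes, 101 to 203 were called lower in the fits with an animal or sample left out. The LC Sciences count, 0 as reported, was 5 when centred on spike-ins (84.6% of all reporters lower) and 2 with the replicate block (21.6%). It was 0 in the methods' t-test at p of 0.01 or less and after adjustment, and 0 with any animal or sample left out. Of all 500 reporters, 72 and 87 were called lower in those t-tests, and 43 to 124 with an animal or sample left out. Pairing by the block added the member calls counted here, ended the call of mammalian miR-29c* and changed no other call of a member or passenger probe.

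Differences near 0 changed sign. That of the first miR-29a/c probe against miR-29a was -0.0253 under median centring, -0.25 under loess on spike-ins and -0.0171 with Hy3 alone. That of the second probe was -0.27 under median centring and -0.26 under loess on spike-ins, against -0.03 as reported, and ranged from -0.0967 to 0.0510 with an animal or sample left out. On LC Sciences hsa-miR-29c against the reporters of its own sequence or shorter forms, which compares no different members, was -0.0461 when centred on spike-ins and ranged from -0.18 to 0.25 with an animal or sample left out. The miR-29a* probe was at -0.0061 with Hy3 alone and at -0.0772 to 0.22 with an animal or sample left out. The Exiqon mean over members in animal 368 was -1.35 under median centring and -2.14 under loess on spike-ins, where animal 378 was at -2.16. On LC Sciences the means of animals 368, 369 and 378 were -2.98, -2.29 and -4.74 when centred on spike-ins, and those of animals 368 and 369 were 0.0012 and 0.067 with the GC trend taken out. The cause of these changes was not tested. Over all probes, 404 Exiqon and 241 LC Sciences calls as reported became 87 and 143 in the methods' t-test at its own threshold, and 79 LC Sciences calls without the filter. Without animal 369 they were 261 and 105, and without animal 378 the Exiqon calls were 183. Low signal leaves the miR-29b reporters and the passenger strands without a measurable difference on LC Sciences. The GC correction and a change in which flags and control spots were used on Exiqon were added after the data were seen.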
